A study of Mus musculus with 36 samples.

Results

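The regions described here are Cas9 ChIP-seq peaks on the mitochondrial chromosome, on unplaced scaffolds of the mouse assembly, or at the start of chromosome 9. Peaks of all 6 deposited lists were pooled under their list name, and a peak was taken by position alone: its chromosome was MT, its sequence name ended in the version suffix of a scaffold, or it lay on chromosome 9 with a start below base 3100000. Of 822 peaks, 263 (32.0%) met this rule. They comprised 17 mitochondrial peaks, 162 peaks on 8 scaffolds and 84 peaks at the start of chromosome 9. The study placed CRISPR activation, a Cas9 that does not cut and carries an activator, at the promoter or at an enhancer of Sim1, a transcription factor gene needed for paraventricular neurons of the hypothalamus, and used ChIP-seq with Cas9 antibodies to look for binding on and off target.

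Each list stood for 1 combination of guide, antibody and source. The 4 lists of hypothalamus came from Sim1 +/- adult mice on a B6/FVB background with the enhancer or the promoter sgRNA, precipitated with a polyclonal antibody against S. pyogenes Cas9 (SpCas9) or a monoclonal antibody against S. aureus Cas9 (SaCas9). The remaining 2 lists came from Neuro2A, a mouse neuroblastoma line, with the SpCas9 antibody and either sgRNA. The labels of the Neuro2A libraries name the cell line as the source but also carry the Sim1 +/- genotype, strain, adult age and sex of the mice; which is meant cannot be told from the labels, and these 2 lists are called Neuro2A by their source. The enhancer mice were pooled males and females and the promoter mice were female, so guide and sex cannot be told apart in hypothalamus. Which Cas9 each animal or culture carried, the guide sequences, the vectors, the control used for calling and how the 2 libraries of a condition were joined are not stated in the sources used here. With 1 list per condition, differences between lists have no replicate check and no p-value is given, and peaks within a list are not replicates. No library made without a guide, and no input library, was analysed here, so the level without a guide was not measured.

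Mitochondrial DNA is a circular molecule present in many copies per cell and not packed into nucleosomes. Unplaced scaffolds are assembled pieces that could not be put on a chromosome, often because they hold repeats or copies of sequence found elsewhere, and the assembled sequence of a mouse chromosome begins next to its centromere, where satellite repeats lie. In many ChIP-seq experiments repeats and sequences of high copy number collect reads, and peaks there are often listed apart from others. This is background on such positions, and whether it holds for these lists was not tested.

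The lists differed widely in how many of these peaks they held. In hypothalamus, the SpCas9 antibody gave 7 of 137 peaks with the enhancer sgRNA (5.11%, exact binomial 95% interval 2.08 to 10.2) and 8 of 92 with the promoter sgRNA (8.70%, 3.83 to 16.4). The SaCas9 antibody gave 59 of 121 with the enhancer sgRNA (48.8%, 39.6 to 58.0) and 58 of 140 with the promoter sgRNA (41.4%, 33.2 to 50.1). In Neuro2A cells the SpCas9 antibody gave 69 of 205 with the enhancer sgRNA (33.7%, 27.2 to 40.6) and 62 of 127 with the promoter sgRNA (48.8%, 39.9 to 57.8). The intervals cover counting error only and treat peaks as independent, which neighbouring peaks are not. Within each antibody and source, the lists of both guides held similar numbers. Between antibodies in hypothalamus, and between sources with the SpCas9 antibody, the numbers differed by many times. Both lists with few of these peaks came from the SpCas9 antibody in hypothalamus.

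**Figure D1:**
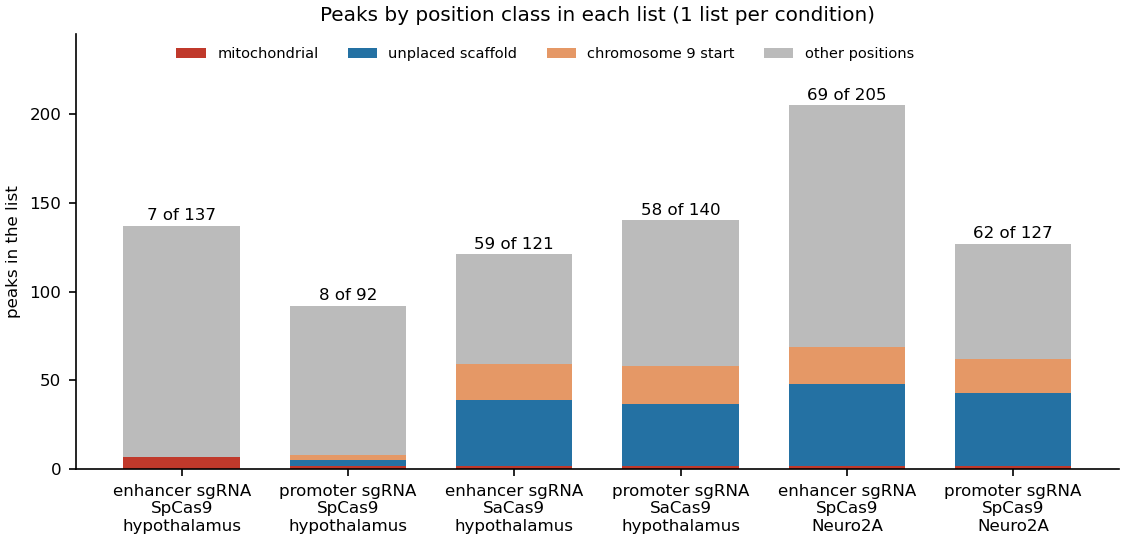
Stacked bars give the number of peaks (vertical axis, peaks) in each of the 6 lists (horizontal axis), coloured by position, with the count of mitochondrial, scaffold and chromosome 9 start peaks of the list total written above. The SpCas9 lists of hypothalamus hold 7 and 8 such peaks and the other 4 lists 58 to 69.

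The makeup of the 3 classes also differed. All 7 peaks of the enhancer SpCas9 hypothalamus list were mitochondrial, and it held 0 on scaffolds and 0 at the start of chromosome 9. The promoter SpCas9 hypothalamus list held 2 mitochondrial, 3 scaffold and 3 chromosome 9 peaks. The other 4 lists were alike in makeup: each held 2 mitochondrial peaks, 35 to 46 scaffold peaks and 19 to 21 chromosome 9 peaks. Over all lists the median length was 554.5 bases on scaffolds and 719.5 at the start of chromosome 9, against 579 at other positions, whereas single mitochondrial peaks reached 6621 bases.

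Positions are given in GRCm38, since the sequence names and the position of Sim1 in the lists match that assembly, although the submitters' processing notes name mm9. No genome sequence was at hand, so the bases of these peaks are not shown and their repeat content was not measured. The RefSeq annotation placed 1 gene near the chromosome 9 peaks, the microRNA gene Mir101c at chr9:3038669-3038743. It starts 183 bases beyond the end of the last peak, and 0 peaks overlapped it. Genes that only other annotations hold there were not looked up. The mature sequence of Mir101c is shown, because it is the one RefSeq product beside these peaks, together with the 3p products of the other members of its family. The sequences are from RefSeq (GRCm38.p6), 5′ to 3′, with bases 2 to 8, the seed that pairs with target messenger RNAs, in capitals.
mmu-miR-101c: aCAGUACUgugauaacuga
mmu-miR-101a-3p: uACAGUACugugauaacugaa
mmu-miR-101b-3p: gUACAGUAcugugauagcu
The mature miR-101c was identical to bases 2 to 20 of miR-101a-3p, whose gene lies on chromosome 4. Reads confined to these shared bases could thus not be assigned by sequence alone. The next RefSeq gene on chromosome 9, the pseudogene Gm32390, began at 3136345, which is 97859 bases past the last peak.

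On the mitochondrial chromosome, 4 lists shared one layout. In the enhancer SaCas9 list a peak ran from base 1 to 6580 and another from 10848 to 16299, the last base. The promoter SaCas9 list had peaks from 1 to 6597 and from 10837 to 16299. The enhancer Neuro2A list had peaks from 1 to 6621 and from 10799 to 16299, and the promoter Neuro2A list from 1 to 6593 and from 10829 to 16299. As the molecule is circular, each pair meets at the origin and forms 1 uninterrupted stretch that covered 73.8% to 74.4% of its 16299 bases. It covered fully 24 of 37 annotated genes, among them both ribosomal RNA genes and the genes of the NADH dehydrogenase subunits ND1, ND2 and ND5 and of cytochrome b, and all of the control region that follows base 15422.

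The remaining 4177 bases, from 6622 to 10798, lay under no peak of any of the 6 lists. That gap held 11 whole genes, among them those of cytochrome c oxidase subunits 2 and 3 and of ATP synthase subunits 6 and 8. It also held the end of the cytochrome c oxidase subunit 1 gene and the start of the ND4 gene.

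The SpCas9 lists of hypothalamus had short mitochondrial peaks instead. The enhancer list had 7, of 349 to 1277 bases, which covered 30.7% of the molecule, touched 11 genes and did not reach the control region. The promoter list had 2, at 251 to 972 within the 12S ribosomal RNA gene mt-Rnr1 and at 1794 to 2199 within the 16S ribosomal RNA gene mt-Rnr2, covering 6.92%. All 9 short peaks lay inside the long stretch of the other lists.

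Pileup, the number of overlapping fragments at a summit, was high over the mitochondrial chromosome in every list but the promoter SpCas9 one. The summit pileups were 551 and 550 in the enhancer SaCas9 list, 443 and 451 in the promoter SaCas9 list, 282 and 290 in the enhancer Neuro2A list, and 497 and 509 in the promoter Neuro2A list. The enhancer SpCas9 hypothalamus list ranged from 218 to 316 over its 7 peaks, and the promoter SpCas9 hypothalamus list had 95 and 98. The 551 was the highest pileup of all 822 peaks. Fold enrichment, the caller's ratio of pileup to local background, ordered the lists differently: 10.6 and 10.9 in the enhancer Neuro2A list, 6.37 and 6.50 in the promoter SaCas9 list, 6.03 and 6.17 in the promoter Neuro2A list, 4.46 at both peaks of the enhancer SaCas9 list, 1.57 to 3.13 in the enhancer SpCas9 hypothalamus list and 1.99 and 2.29 in the promoter SpCas9 hypothalamus list. The list with the highest mitochondrial pileup thus had only the 4th highest fold.

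**Figure D2:**
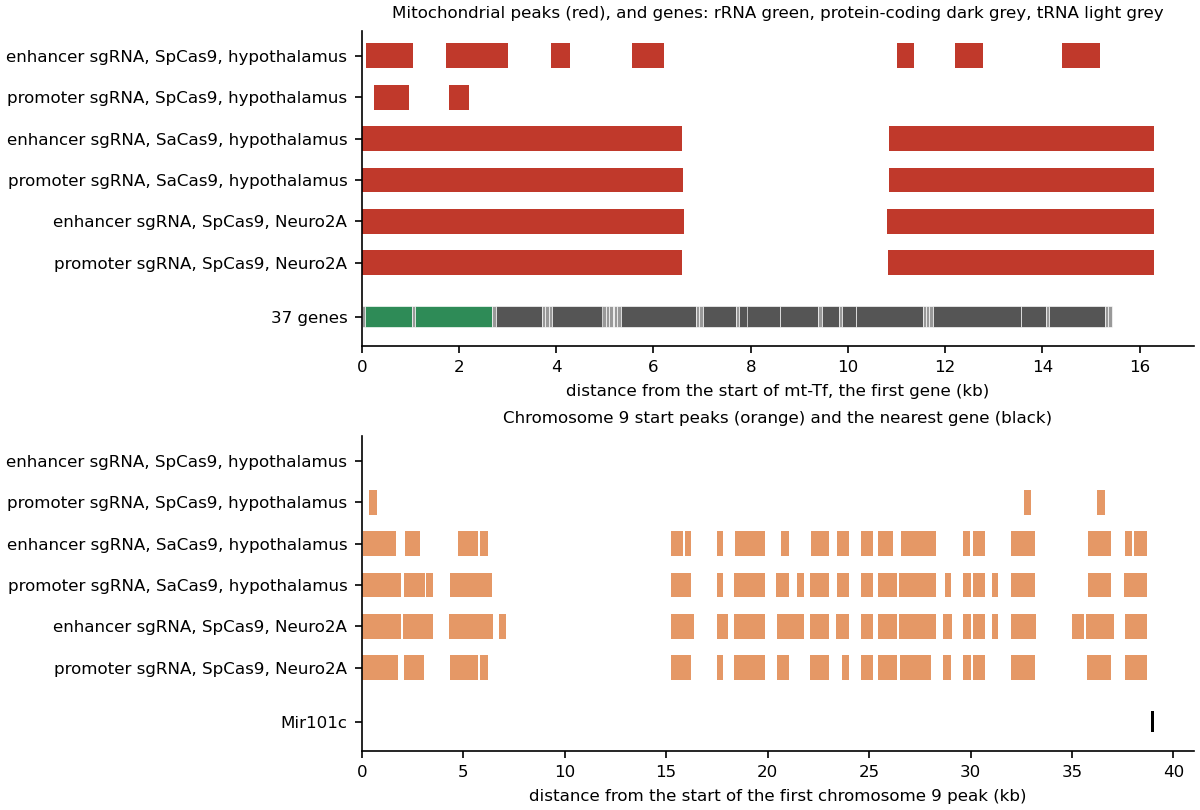
Bars mark the peaks of each list (rows) along the mitochondrial chromosome, as distance from its first gene in kb (upper panel), and along the start of chromosome 9, as distance from the first peak in kb (lower panel), with annotated genes at the bottom. In the upper panel 4 lists share an uncovered stretch of 4177 bases, and in the lower panel the same 4 lists share an empty stretch before the larger group of peaks.

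The 84 peaks at the start of chromosome 9 lay between chr9:2999772 and chr9:3038486. The enhancer SaCas9 list held 20 peaks that covered 40.4% of its span, the promoter SaCas9 list 21 that covered 49.2%, the enhancer Neuro2A list 21 that covered 55.4% and the promoter Neuro2A list 19 that covered 44.4%. In each of these 4 lists the longest interval without a peak was at one place. It began at 3005967, 3006205, 3006864 and 3005977 in that order, ended between 3015023 and 3015031, and measured 8160 to 9065 bases. The promoter SpCas9 hypothalamus list held 3 peaks here, and each overlapped a peak of all 4 lists. The position limit decided little: the last peaks inside it ended at or before 3038486, and the first peaks outside it began at 19575462, 35305020, 24542031, 24541801, 21335197 and 24542022 in the order of the lists above.

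One chromosome 9 interval, chr9:3035476-3036824, had the highest fold enrichment of these peaks in all 5 lists with peaks there. Its fold was 4.30 in the promoter SpCas9 hypothalamus list, 5.72 in the enhancer SaCas9 list, 8.93 in the promoter SaCas9 list, 20.6 in the enhancer Neuro2A list and 8.09 in the promoter Neuro2A list. Its pileup in the same order was 145, 165, 148, 140 and 158. The pileups were close to each other while the folds spread widely, and the summits lay within 3 bases. The 20.6 was the highest fold among the 263 peaks.

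The scaffold peaks were concentrated on a few sequences. JH584304.1 carried 68 of the 162, GL456383.1 carried 24, GL456389.1 carried 19, GL456393.1 carried 15, GL456396.1 carried 14, GL456392.1 carried 12, GL456390.1 carried 9 and GL456216.1 carried 1. JH584304.1 had 20 peaks in the enhancer SaCas9 list, 15 in the promoter SaCas9 list, 12 in the enhancer Neuro2A list, 20 in the promoter Neuro2A list and 1 in the promoter SpCas9 hypothalamus list. The enhancer Neuro2A list, which held the most scaffold peaks in all (46), held fewer on JH584304.1 and more on GL456383.1, where it had 11 against 4 or 5 in the 3 other lists with peaks there. The lone peak on GL456216.1, at 49191 to 49568, was in the promoter SaCas9 list with a pileup of 54 and a fold of 2.24.

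The scaffold peak with the highest pileup lay at GL456392.1:21705-23629. Its pileup was 271 in the promoter SpCas9 hypothalamus list, 367 in the enhancer SaCas9 list, 311 in the promoter SaCas9 list, 270 in the enhancer Neuro2A list and 325 in the promoter Neuro2A list. The fold in that order was 2.37, 3.86, 5.72, 13.1 and 5.06. The highest scaffold fold was 16.1, in the enhancer Neuro2A list near the end of JH584304.1, at 106545 to 107127, where the other 3 lists with a peak had 4.48, 7.57 and 6.58. The lowest folds were also on JH584304.1 in 4 lists: 1.58 at 67496 to 67874 in the enhancer SaCas9 list, 1.72 at 60744 to 61242 in the promoter SaCas9 list, 2.24 at 59851 to 60155 in the enhancer Neuro2A list and 1.93 at 64507 to 64837 in the promoter Neuro2A list. A single scaffold therefore held both ends of the range in the enhancer Neuro2A list's scaffold peaks.

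Taken by list, the median fold of these peaks was 1.68 in the enhancer SpCas9 hypothalamus list, 2.06 in the promoter SpCas9 hypothalamus list, 3.09 in the enhancer SaCas9 list, 4.76 in the promoter SaCas9 list, 7.56 in the enhancer Neuro2A list and 3.68 in the promoter Neuro2A list. At other positions of the same lists the medians were 9.03, 13.5, 2.70, 4.54, 11.6 and 3.54. In the SpCas9 lists of hypothalamus these regions were thus much less enriched than the rest of the list, in the enhancer Neuro2A list somewhat less, and in the other 3 lists the medians of both kinds of position were close. Median pileups of these peaks were 277, 172.5, 117, 77.5, 42 and 91, against 24.5, 25, 125.5, 68.5, 42.5 and 95 at other positions. Among the 10 peaks of highest pileup in each list, 6, 2, 4, 4, 3 and 4 were of these regions. Among the 10 of highest fold, 0, 0, 1, 0, 0 and 3 were. These regions made up 5.11%, 8.70%, 48.8%, 41.4%, 33.7% and 48.8% of all peaks of the lists. By pileup the enhancer SpCas9 hypothalamus list was well above its share, and the promoter one rested on 2 peaks. The SaCas9 and Neuro2A lists were near or below theirs, which is no result about these regions. By fold every list was below its share. In the SpCas9 hypothalamus lists, with shares of 5.11% and 8.70%, 0 of 10 is near the share and is no result.

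For comparison, each list had the same 2 peaks within 1 Mb of Sim1, the targeted gene (10:50894754-50989152), one ending just before its start and one on its far side. Their fold ran from 38.0 in the enhancer SaCas9 list to 180 in the promoter SpCas9 hypothalamus list, above the 20.6 that these regions reached. Their pileup ran from 192 to 268, below that of the mitochondrial peaks in 4 lists.

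The local background behind each fold was recovered from the deposited values as (pileup + 1)/fold − 1. With that background, a Poisson tail gave back the deposited −log10 p-value to within 0.000472 in every list, wherever it could be computed (all but 5, 5, 0, 2, 6 and 1 peaks). Each list had a lowest background, 0.883, 0.427, 4.74, 2.65, 0.988 and 3.15 fragments in the order of the lists above. Of the 263 peaks 1 was at this lowest value, within 1%. At other positions, in the order of the lists, 62 of 130, 41 of 84, 8 of 62, 18 of 82, 49 of 136 and 9 of 65 were.

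The median background of these peaks was 181 times the lowest value of the list in the enhancer SpCas9 hypothalamus list, and in the promoter SpCas9 hypothalamus list it was 85.4 fragments against a lowest value of 0.427. It was 8.29 times in the enhancer SaCas9 list, 7.06 in the promoter SaCas9 list, 6.43 in the enhancer Neuro2A list and 7.23 in the promoter Neuro2A list. Both lists with few of these peaks thus had a background at them far further above the lowest of the list than the other 4 lists had. At other positions the same medians were 1.07, 1.05, 9.93, 6.48, 1.18 and 7.64 times the lowest value. The medians of these peaks mix classes unequally: all 7 of the enhancer SpCas9 hypothalamus list were mitochondrial, against 2 in each of the other 4 lists. At mitochondrial peaks alone the median background was 159, 44.7, 123, 68.6, 25.6 and 81.6 fragments. The lowest values were 0.883, 0.427, 4.74, 2.65, 0.988 and 3.15. Within this class the gap between lists was thus smaller, with the same direction.

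**Figure D3:**
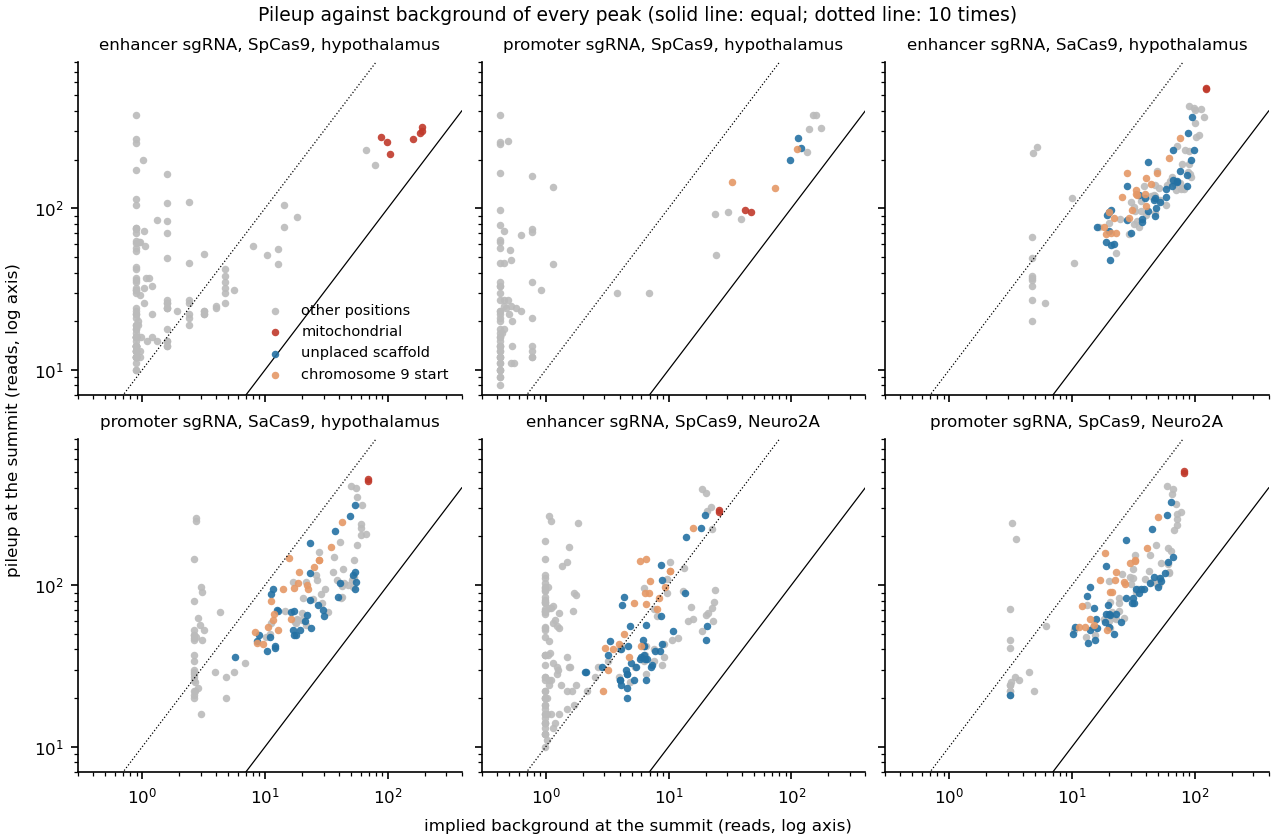
Each point is a peak, with the background implied by its fold on the horizontal axis and its pileup on the vertical axis (fragments at the summit, log axes), 1 panel per list; the solid line marks equality and the dotted line a pileup of 10 times the background. Coloured points (mitochondrial, scaffold and chromosome 9 start) lie to the right of the column of grey points at the lowest background of each list, apart from 1 scaffold peak in the promoter Neuro2A list.

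Backgrounds of the 4 lists with many of these peaks were proportional to each other. At 21 summits that lay within 5 bases in both SaCas9 lists, the background of the enhancer list was 1.79 times that of the promoter list (median, lowest 1.77), and the ratio of the lowest backgrounds was 1.79. Between the enhancer SaCas9 and enhancer Neuro2A lists the ratio was 4.80 at 22 summits (4.65 to 4.90), with 4.80 for the lowest backgrounds. Between the enhancer and promoter Neuro2A lists it was 0.313 at 25 summits (0.305 to 0.318), with 0.313 for the lowest backgrounds. The same ratios held at matched summits elsewhere in the genome, with medians of 1.79, 4.80 and 0.313 over 25, 10 and 21 summits. Backgrounds of these SaCas9 hypothalamus and Neuro2A lists thus differed by close to 1 factor per pair of lists. Whether the lists were called against 1 control is not stated in the labels.

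The promoter SpCas9 hypothalamus list did not follow this proportion. Against the enhancer Neuro2A list its background was 6.73 times as high at 6 matched summits of these regions (5.65 to 7.17), while its lowest background was 0.432 times as high and the median at 11 matched summits elsewhere was 0.432 (0.257 to 8.09). Its pileups at the same 6 summits were 1.03 times those of the Neuro2A list (1.00 to 1.10). The enhancer SpCas9 hypothalamus list had 0 summits of these regions within 5 bases of a summit in another list. At 29 matched summits elsewhere, its background was 2.07 times that of the promoter SpCas9 hypothalamus list, equal to the 2.07 of the lowest backgrounds. At summits with the lowest background in both lists this ratio is fixed, so it does not show that their local backgrounds were proportional. How many of the 29 were at the lowest background was not counted.

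Merging overlapping peaks of all lists gave 83 intervals, 2 mitochondrial, 60 on scaffolds and 21 on chromosome 9. Of these, 36 held peaks of at least 4 lists (2, 17 and 17 by class), and each of those 36 had a peak in both SaCas9 lists and both Neuro2A lists. One mitochondrial interval was found in all 6 lists, 7 intervals in exactly 5, and 19 in 1 list. On chromosome 9, 17 of 21 intervals recurred in this way, against 17 of 60 on scaffolds. Peaks at other positions were not merged over lists, so these counts have no share over all peaks beside them. As the SpCas9 hypothalamus lists held only 7 and 8 of these peaks, intervals in at least 4 lists largely had to include the other 4 lists.

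Over the 36 intervals the enhancer Neuro2A list had the highest fold at all 36, and the enhancer SaCas9 list had the lowest of the 4 at 33. For pileup the order was nearly the reverse: the enhancer SaCas9 list was highest at 34 and the enhancer Neuro2A list lowest at 34. The ratio of the highest to the lowest list was a median of 2.93 for fold (1.19 to 5.93), 1.45 for pileup (1.10 to 4.11) and 4.80 for background. At all 36 the list with the highest fold was also the list with the lowest background. The background was computed from pileup and fold, so with pileups this close the match largely follows from the arithmetic.

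**Figure D4:**
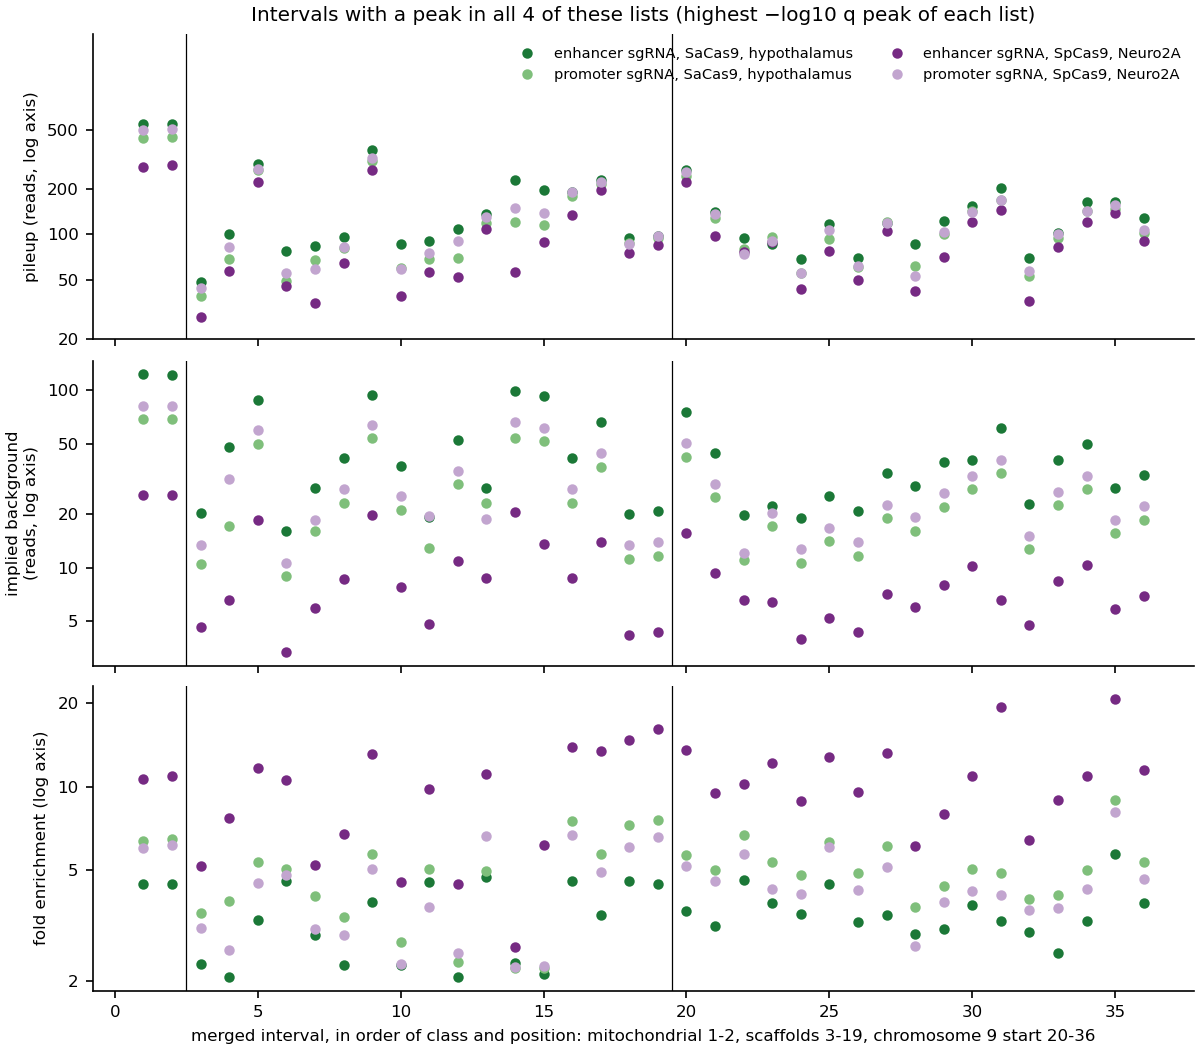
The 36 intervals found in both SaCas9 lists and both Neuro2A lists are ordered by class and position on the horizontal axis, and points give pileup (top), implied background (middle) and fold enrichment (bottom) in each list on log axes. The enhancer Neuro2A list (dark purple) is lowest in background and highest in fold at all 36.

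Sharing was counted as the peaks of a list overlapped by at least 1 base in at least 3 of the other 5 lists. In the enhancer SpCas9 hypothalamus list 7 of 7 of these peaks were shared (21.2% of all its peaks were) and in the promoter SpCas9 hypothalamus list 8 of 8 (39.1% of all). In the enhancer SaCas9 list 40 of 59 were shared (67.8%, against 64.5% of all its peaks) and in the promoter SaCas9 list 38 of 58 (65.5%, against 56.4%). In the enhancer Neuro2A list 37 of 69 were shared (53.6%, against 39.5%) and in the promoter Neuro2A list 38 of 62 (61.3%, against 63%). In the enhancer SaCas9 and promoter Neuro2A lists the share was close to that of all peaks, which is no result about these regions. The 7 of 7 and 8 of 8 rest on long peaks of other lists in part: with overlap of at least 50% of both peaks they became 0% and 25%. At other positions of these SpCas9 hypothalamus lists the shares were then 13.1% and 25%. For the enhancer list the 0% was fixed by length. Its 7 peaks of 349 to 1277 bases lay inside peaks of at least 5452 bases, so they could not cover 50% of those. This setting thus cannot tell whether these peaks were shared more often than peaks at other positions.

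Pairs of lists showed how the regions overlapped across guides and sources. Of these peaks in the enhancer SaCas9 list, 74.6% overlapped the promoter SaCas9 list, against 74.2% at other positions, and 86.4% overlapped the promoter Neuro2A list, against 75.8%. In the other direction the shares were 70.7% against 58.5% and 80.6% against 76.9%. Of these peaks in the enhancer Neuro2A list, 69.6% overlapped the promoter Neuro2A list, against 35.3% (48 of 136) at other positions. In the other direction 80.6% did, against 72.3% (47 of 65). Several of these shares were close to those at other positions and are no result about these regions; the largest gap of the 6 was that of the enhancer Neuro2A list. Peaks found in no other list numbered 13 of 69 in the enhancer Neuro2A list, against 59 of 136 at other positions. They numbered 3 of 59 against 8 of 62 in the enhancer SaCas9 list, 2 of 58 against 16 of 82 in the promoter SaCas9 list, and 1 of 62 against 3 of 65 in the promoter Neuro2A list.

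RNA of genes at these positions was read from hypothalamus libraries of 19 mice aged 3 to 9 months: 5 wild type, 4 Sim1 +/- without an sgRNA (Sim1 heterozygous), 6 Sim1 +/- with the promoter sgRNA and 4 Sim1 +/- with the enhancer sgRNA. All were B6/FVB but for 1 wild-type and 1 Sim1 heterozygous mouse, which were B6. Recovered reads ran from 14052657 to 56465123 in the 18 libraries where they were counted. All 12 hypothalamic neuron markers were above 10 normalized counts in the median library, and the liver genes Alb and Apoa2 had medians of 4 and 3.1, with up to 1556.9 and 296.5 in single libraries. Mean Sim1 was 422.5 ± 94.6 (SD, n = 5) in wild type, 211 ± 92.6 (n = 4) in Sim1 heterozygous, 246 ± 108 (n = 6) with the promoter sgRNA and 300 ± 36.1 (n = 4) with the enhancer sgRNA; the Sim1 differences of both sgRNA groups from Sim1 heterozygous did not pass limma (adjusted p = 0.938 and 0.678).

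One gene of the table outside the mitochondrion lay under these peaks: AC149090.1 (ENSMUSG00000095041), annotated as protein-coding on the minus strand of JH584304.1 at 52190 to 59690. Peaks overlapped the gene near its start, at the high-numbered end, in 3 lists. In each of these lists a peak covered the start itself. The enhancer SaCas9 list had peaks at 58706 to 59300 (pileup 169, fold 2.21) and 59530 to 60798 (230, 2.32), the promoter SaCas9 list at 59579 to 60147 (121, 2.22), and the promoter Neuro2A list at 58711 to 59290 (111, 2.12) and 59490 to 60762 (150, 2.24).

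AC149090.1 had normalized counts of 1372.9, 2091.3, 2832.6, 1664 and 2431.7 in the wild-type mice and of 2276.6, 2421.4, 1905.2 and 1920.9 in the Sim1 heterozygous mice. With the promoter sgRNA its counts were 2078, 2996.1, 1785.8, 2500.7, 1129.3 and 2338, and with the enhancer sgRNA 1665.5, 2018.2, 1285.6 and 2685.7. The 4 groups overlapped, with both the lowest and the highest library in the promoter sgRNA group. Against Sim1 heterozygous, the difference was -0.04 ± 0.24 (log2 of normalized count + 1, SE) with the promoter sgRNA and -0.17 ± 0.27 with the enhancer sgRNA, within the spread between mice (limma, adjusted p = 0.989 and 0.858). Scaffolds can hold near copies of genes placed elsewhere, so how its reads were assigned among copies is uncertain.

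**Figure D5:**
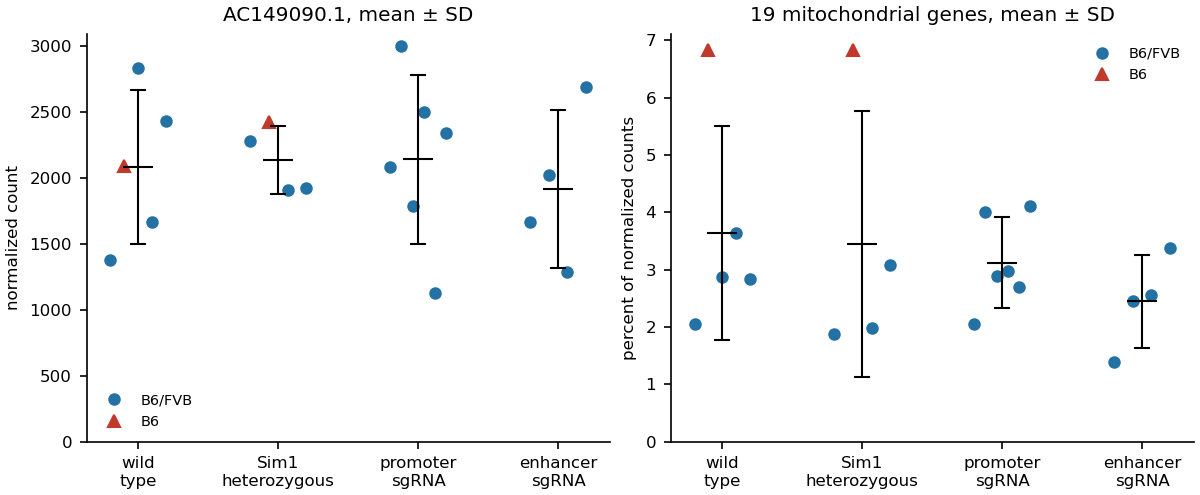
Points are libraries, 1 per mouse, with the mean and SD of each group as bars; the vertical axes give the normalized count of AC149090.1 (left) and the percent of normalized counts on 19 mitochondrial genes (right), and triangles mark the B6 mice. The groups overlap for AC149090.1, and the 2 B6 mice have the highest mitochondrial share at 6.82% and 6.83%.

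Other scaffold genes of the table lay under no peak. DHRSX (GL456216.1, 15881 to 36183), a dehydrogenase/reductase family gene, Vamp7, a vesicle fusion gene, Spry3, a Sprouty family gene, Tmlhe, an enzyme gene of carnitine synthesis (all 3 on GL456233.1), and CAAA01147332.1 on JH584295.1 had means over all libraries of 259, 1603, 421, 229 and 346 normalized counts. Their differences from Sim1 heterozygous, with AC149090.1, ran from -0.21 to 0.06 with the promoter sgRNA and from -0.61 to 0.04 with the enhancer sgRNA (log2), and 0 of 6 passed in either comparison (limma, smallest adjusted p = 0.934 and 0.678). AC168977.1 on GL456212.1 fell under the filter of a mean of 1 normalized count. Of the 19 mitochondrial genes analysed here, 17 passed that filter. All 19 lie outside the group of 11 genes in the uncovered stretch, so that every one lay under a peak followed from which genes were analysed. Their differences ran from -1.25 to 1.21 with the promoter sgRNA (median 0.01, 6 of 17 negative) and from -1.60 to -0.01 with the enhancer sgRNA (median -0.37, 17 of 17 negative), and 0 passed (smallest adjusted p = 0.934 and 0.678 by limma). The comparisons share the Sim1 heterozygous libraries, and mitochondrial genes share long precursor transcripts and library depth, so the common sign is not independent between genes. It also rested on single libraries. Without Sim1 heterozygous F_3, a B6 mouse, 9 of 17 were negative with the enhancer sgRNA (median -0.01), and without enhancer sgRNA F_1 13 of 17 were (median -0.07). The mitochondrial share of counts was 6.82% in Sim1 heterozygous F_3 and 1.88%, 1.99% and 3.09% in the other 3 mice of that group. With the promoter sgRNA the median ran from -0.21 without Sim1 heterozygous F_1 to 0.39 without Sim1 heterozygous F_3.

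Read against the whole table, these counts are at the background: 0 of 20505 genes (0%) passed with the promoter sgRNA and 0 of 20505 (0%) with the enhancer sgRNA. At an unadjusted p under 0.05 limma gave 836 and 1368 genes, and edgeR on recovered reads gave 605 and 1259 with 0 adjusted calls in both. Among the 23 genes at these positions 1 had an unadjusted p under 0.05 with the promoter sgRNA, a mitochondrial tRNA gene, and 0 with the enhancer sgRNA. As libraries are separate mice by their labels, the p-values measure the spread between mice.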

How the data were processed

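Peaks came from 6 lists, 1 per sgRNA, antibody and source. Per the file headers, the authors deposited for each peak its pileup signal, a fold enrichment (a ratio over background), and −log10 p- and q-values. The submitters' processing notes name CASAVA 1.8, STAR 2.5.2b, MACS2 2.1.1.20160309, DESeq2 1.16.1 and build mm9, with no roles. Depths of the ChIP libraries are unknown. Intervals on shares of peaks are exact binomial and cover counting error only. The intended description of peak sequence needs a genome and was not done. The members and lists were chosen with earlier results of these data known.

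For RNA, per the file headers, the authors deposited normalized counts, a signal that equals counts divided by 1 factor per library, rounded to 1 decimal. Low values were whole multiples of 1 step within 0.05 for 100% of values checked in every library. Reads were recovered for 18 of 19 libraries. Wild type F_4 was left out of the recovery, although its values passed the same check. limma 3.58.1 (R 4.3.3) was fitted with a trended prior to log2(normalized count + 1), after genes under a mean of 1 were dropped (20505 left). Sex was a covariate, and p-values were adjusted over the whole table by Benjamini-Hochberg at 0.05. limma and edgeR 4.0.16 were tested on simulated data with 200 changed genes. The share of these that was called is not given here, so a lack of calls is not read as a lack of change. Named peaks were, by list, the 3 of highest −log10 q-value, the highest and lowest fold, and intervals found in at least 4 lists. Genes were all of those at these positions, with values per library for the one outside the mitochondrion under a peak. Alternatives changed the q-value minimum (5 or 10), the chromosome 9 limit, merging, overlap, pseudocount, filter, covariates, block and libraries.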

Additional observations from a re-analysis of the deposited data

Results flagged for a closer look

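In 32 groups of 4 to 6 libraries (7 genes or the mitochondrial share, in 4 groups each), the highest and the lowest library were compared with the nearest other library by Dixon's ratio, which chance passes in about 1 of 20 groups. It singled out 1 library. Spry3, on GL456233.1, was 247.2 normalized counts in Sim1 heterozygous F_3, against 451.4 to 485.2 in the other 3 Sim1 heterozygous mice. F_3 is the B6 mouse of that group, and in the wild-type group the B6 mouse, F_2, also had the lowest Spry3 of its group at 386.3, without passing the ratio. A part of strain in this was not tested.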

How the results depend on the processing

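The number of these peaks stayed within 1.5 times its value in 23 of 30 recounts. With a −log10 q-value of at least 10 the SpCas9 hypothalamus lists held 4 (enhancer) and 5 (promoter), and with peaks of a list within 1000 bases merged the enhancer SpCas9 hypothalamus, both SaCas9 and both Neuro2A lists held 4, 38 and 34, and 43 and 38 (enhancer first); the cause of the latter is the merging itself. Median fold and pileup stayed within their 95% interval in 44 of 46 recounts; with a −log10 q-value of at least 10 the median fold became 5.04 in the promoter SaCas9 and 4.29 in the promoter Neuro2A list. Mitochondrial peaks left out gave no value for the enhancer SpCas9 hypothalamus list, which held none elsewhere. With overlap of at least 50% of both peaks, the share found in at least 3 other lists became 0% and 25% in the SpCas9 hypothalamus lists (enhancer first) and 50.8% and 51.7% in the SaCas9 lists. Under the same setting, the shares at other positions were 13.1% and 25%, and 54.8% and 47.6%, in that order. The 0% of the enhancer SpCas9 hypothalamus list was fixed by the length of its peaks.

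The count of called genes at these positions was 0 in all 16 refits for the enhancer and 18 for the promoter sgRNA. The difference of AC149090.1 with the promoter sgRNA, near 0, turned positive without promoter sgRNA F_3 (0.01) or M_1 (0.12), without Sim1 heterozygous F_3 (0.01), and with edgeR (0.0103); leaving out single libraries gave -0.15 to 0.12, and with the enhancer sgRNA -0.36 (without enhancer sgRNA M_3) to -0.02 (without M_1). Over the whole table, calls with the enhancer sgRNA ran from 0 to 3 when single libraries were left out (3 without enhancer sgRNA F_1), and were 3 with sex and age and 4 with the replicate block. With the promoter sgRNA the replicate block gave 0. Under the block AC149090.1 was -0.36 (promoter) and -0.44 (enhancer), against -0.04 and -0.17, and did not pass (limma, adjusted p = 0.995 and 0.768). The cause was not tested. Deviations of same-numbered libraries correlated at 0.31, 0.31 and 0.08 with the promoter sgRNA, where 2 of 3 matched best with their own number. With the enhancer sgRNA they correlated at 0.15 and 0.35, and both matched best with their own number. Promoter F_1, F_3 and M_1 were of the same age as their Sim1 heterozygous namesakes (7, 4 and 9 months), whereas enhancer F_1 and M_1 were 6 months old. Whether the numbers pair the mice was thus not settled, and the main fit did not pair them.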

Other observations

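The 19 mitochondrial genes of the RNA table took 6.83% of normalized counts in wild type F_2 and 6.82% in Sim1 heterozygous F_3, the 2 B6 mice. The 17 B6/FVB mice ranged from 1.40% to 4.11% with a median of 2.84%. By group the share was 3.64% ± 1.86 (SD, n = 5) in wild type, 3.45% ± 2.32 (n = 4) in Sim1 heterozygous, 3.12% ± 0.793 (n = 6) with the promoter sgRNA and 2.45% ± 0.814 (n = 4) with the enhancer sgRNA. With 1 B6 mouse in each of 2 groups, strain and the single library cannot be told apart, and neither sgRNA group held a B6 mouse.

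Peaks outside the rule included some of the same kind in values. On chromosome 2, a peak at 98662056 to 98663135 in the enhancer SaCas9 list had a pileup of 427 and a fold of 4.74, one at 98662033 to 98663161 in the promoter SaCas9 list had 410 and 8.07, and one at 98662044 to 98663152 in the promoter Neuro2A list had 413 and 6.86. They were the third by −log10 q-value outside the described regions in these lists. A background above 2 times the lowest of the list was found at 31 of 130, 14 of 84, 51 of 62, 48 of 82, 43 of 136 and 49 of 65 other positions, against 7 of 7, 8 of 8, 59 of 59, 58 of 58, 69 of 69 and 61 of 62 of the described peaks.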
